A study of Mus musculus with 2 samples.

Results

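Cell cycle genes were followed through Neurog3-lineage cells of the mouse small intestine. The set holds 42 of the 32285 genes in the count tables, each found by its symbol. It was divided by role into 16 genes of S phase, 19 genes of G2 and mitosis (G2/M), 2 genes of chromatin and the cytoskeleton known to follow division (Hmgb2 and Stmn1), 3 G1 cyclins (Ccnd1, Ccnd2 and Ccne1) and 2 inhibitors of cyclin-dependent kinases (Cdkn1a and Cdkn1c). Red fluorescent (Tomato+) epithelial cells had been sorted from whole small intestines freed of pancreas, and single-cell RNA-Seq was made with the 10x Genomics 3′ kit. Both groups carried Neurog3Cre, a recombinase under control of a gene of endocrine progenitors, and Rosa26tdtomato, a reporter that stays on in all descendants of a cell in which the Cre was active. WT mice carried these alleles alone, and NFKO mice were Neurog3Cre-FoxO1 f/f; Rosa26tdtomato, so that FoxO1 should be lost in the same lineage. The mice were 4 to 6 weeks old, and each group was 1 library pooled from 4 to 5 mice, so no difference between the libraries has a replicate check. Ratios below are NFKO over WT, and the 95% intervals in parentheses cover counting error only.

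After filtering, 3003 WT and 5292 NFKO cells were kept, with a median of 16883 and 17039 unique molecular identifiers (UMIs, 1 per captured transcript) per cell. Levels are given in CPM, the counts of a gene per 1000000 UMIs of the cell group in that library. Foxo1 itself stood at 11.6 CPM in WT and 12.4 CPM in NFKO (ratio 1.07, 0.987 to 1.17), so a loss of FoxO1 was not visible. The 3′ reads may lie outside the deleted part, in which case they check nothing, and the second group is called the library labelled NFKO or, for short, NFKO. Foxo3 (10.6 and 11.4 CPM) and Foxo4 (9.04 and 7.93 CPM) were of similar level. The WT library held 2424 male-typed and 6 female-typed cells by Y-linked genes and Xist, whereas NFKO held 357 and 4359, so genotype and sex cannot be told apart over all cells. The 7 stress genes followed here (Fos, Jun, Egr1, Atf3, Hspa1a, Hspa1b and Dnajb1) summed to 3454 CPM in WT and 2615 CPM in NFKO, and the heat shock gene Hspa1a alone stood at 294 and 23.1 CPM. Their part in the results was not tested. The libraries shared 6 of their deposited barcodes and 4 of those kept.

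A dividing cell copies its DNA in S phase and segregates it in mitosis. Entry into S phase depends on G1 cyclins and their kinases, which release E2F transcription factors that switch on the replication genes. The G2/M genes are switched on later, largely through the CHR promoter element and CCAAT boxes, and inhibitors such as p21 (Cdkn1a) and p57 (Cdkn1c) hold the kinases back. In the intestinal crypt, Lgr5+ and Olfm4+ stem cells and their early daughters divide, whereas mature absorptive, goblet, Paneth, tuft and enteroendocrine cells have left the cycle.

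Cells were clustered without 143 listed cell cycle genes, the 42 among them, and without 102 histone genes, and clusters were named by marker genes. Cell cycle genes outside the lists were not removed, so a cluster could still form on division. Of the 22 clusters, 18 took a name. The stem-like group (292 WT and 182 NFKO cells) was marked by Olfm4, and the endocrine progenitor-like group (196 and 366 cells) by Neurog3. Beside Olfm4, the leading genes of the stem-like group included Hells, Mcm3, Cdca7, Uhrf1 and the histone gene Hist1h2ap. Enteroendocrine-like (793 and 1490), goblet-like (863 and 1533), enterocyte-like (267 and 381), Paneth-like (265 and 251) and tuft-like cells (89 and 180) were named by markers of mature types and are called the mature groups. Within the enterocyte-like group, cluster 12 was named on 3 of 8 markers, none of them among its leading genes, so how mature its cells were is uncertain. Cluster 15 (66 and 163 cells) and cluster 7 (79 and 360 cells) met no name. The leading genes of cluster 15 included Hist1h1b, Cdk1, Nusap1 and Aurkb, and those of cluster 7 included Ccnb2, Cenpa, Cdc20 and Cenpw, with the unlisted kinetochore gene Knstrn.

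Promoter letters of the S and G2/M genes were then counted. RefSeq windows on GRCm38.p6 reaching from 250 bases before to 50 bases after the start of transcription were available for 14 of the 16 S genes (15 windows) and for 16 of the 19 G2/M genes (16 windows). An E2F-type site, written TTTGGCGC, TTTGCCGC, TTTCGCGC or TTTCCCGC and searched on both strands, was present in 53.3% of the S windows, in 6.25% of the G2/M windows and in 2.27% of all 32851 windows. The CHR-type letters TTTGAA or TTCGAA were present in 81.3% of the G2/M windows, in 13.3% of the S windows and in 19.2% of all windows. CCAAT was found in 87.5% of the G2/M windows, 66.7% of the S windows and 37.4% of all, and CHR-type letters and CCAAT occurred together in 81.3%, 13.3% and 7.53%. All 13 G2/M windows with CHR-type letters also held CCAAT. A match of letters is a description and does not show binding.

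Of the S genes, Mcm5 and Mcm6, which encode subunits of the replicative helicase, are shown because their E2F-type sites, in capitals, lie before the start and overlap or recur.
Mcm5, chr8:75109259-75109558, plus strand: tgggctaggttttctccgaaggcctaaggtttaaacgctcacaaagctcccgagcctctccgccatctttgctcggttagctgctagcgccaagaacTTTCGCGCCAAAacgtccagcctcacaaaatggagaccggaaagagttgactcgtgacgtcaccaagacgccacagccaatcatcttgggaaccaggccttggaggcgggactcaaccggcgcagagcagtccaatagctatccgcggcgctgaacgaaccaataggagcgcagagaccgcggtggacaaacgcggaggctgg
Mcm6, chr1:128359656-128359955, minus strand: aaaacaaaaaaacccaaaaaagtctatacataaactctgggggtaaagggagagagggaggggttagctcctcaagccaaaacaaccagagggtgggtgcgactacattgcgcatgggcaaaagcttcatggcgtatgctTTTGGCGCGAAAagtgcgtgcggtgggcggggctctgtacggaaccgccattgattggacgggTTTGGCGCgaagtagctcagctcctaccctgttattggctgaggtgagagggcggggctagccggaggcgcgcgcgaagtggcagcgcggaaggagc

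Of the G2/M genes, Cdc20 and Ube2c, which work with the anaphase-promoting complex, and Cdk1, the mitotic kinase, are shown with CHR-type letters and CCAAT in capitals. The Ccnb1 window is set beside them because it held CCAAT in 2 places and neither TTTGAA nor TTCGAA on either strand. Other letters, such as the tttaaa after its last CCAAT, were not searched, so this does not show that the window lacks a CHR element. Cdk1 was the 1 G2/M gene whose window also held an E2F-type site, left here in lower case.
Cdc20, chr4:118437294-118437593, minus strand: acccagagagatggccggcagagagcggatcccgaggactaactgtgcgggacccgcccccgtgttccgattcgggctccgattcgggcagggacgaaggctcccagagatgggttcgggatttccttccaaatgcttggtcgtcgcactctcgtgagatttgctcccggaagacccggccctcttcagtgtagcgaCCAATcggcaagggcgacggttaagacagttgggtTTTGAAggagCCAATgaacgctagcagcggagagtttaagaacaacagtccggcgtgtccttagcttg
Ube2c, chr2:164769679-164769978, plus strand: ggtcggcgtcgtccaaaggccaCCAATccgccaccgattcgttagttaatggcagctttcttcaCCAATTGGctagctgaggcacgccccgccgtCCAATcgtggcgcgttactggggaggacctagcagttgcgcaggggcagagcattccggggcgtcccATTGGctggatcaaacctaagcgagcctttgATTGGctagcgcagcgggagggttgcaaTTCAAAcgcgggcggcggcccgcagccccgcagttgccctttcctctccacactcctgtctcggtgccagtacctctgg
Cdk1, chr10:69352863-69353162, minus strand: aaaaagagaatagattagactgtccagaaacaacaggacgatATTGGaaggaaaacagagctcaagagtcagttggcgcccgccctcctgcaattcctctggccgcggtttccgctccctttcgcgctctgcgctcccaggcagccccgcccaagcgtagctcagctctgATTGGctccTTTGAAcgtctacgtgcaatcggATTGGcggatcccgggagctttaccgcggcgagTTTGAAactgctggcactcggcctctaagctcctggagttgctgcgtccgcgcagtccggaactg
Ccnb1, chr13:100786437-100786736, minus strand: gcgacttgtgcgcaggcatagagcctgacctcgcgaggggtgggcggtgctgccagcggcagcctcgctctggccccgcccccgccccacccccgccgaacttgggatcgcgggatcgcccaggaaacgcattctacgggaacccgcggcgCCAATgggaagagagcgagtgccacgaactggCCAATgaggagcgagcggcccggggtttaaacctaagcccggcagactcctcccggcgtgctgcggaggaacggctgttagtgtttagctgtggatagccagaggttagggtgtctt

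S and G2/M genes were high in the stem-like group and in cluster 15 and lower in the mature groups, of which the enterocyte-like cells held the most G2/M transcripts. Summed over the 16 S genes, the level was 1277 CPM in WT and 1164 CPM in NFKO stem-like cells, 1439 and 1599 CPM in cluster 15, and 265 and 298 CPM in cluster 7. The endocrine progenitor-like group stood at 152 and 153 CPM, which the stem-like level exceeded 8.39-fold (7.54 to 9.36) in WT and 7.61-fold (7.10 to 8.17) in NFKO. Enteroendocrine-like cells had 126 and 102 CPM, and goblet-like cells 102 and 70.6 CPM. Thus the S genes divided these cell groups into 3 tiers, with the stem-like group and cluster 15 at the top and cluster 7 between these and the endocrine and goblet-like groups. Other groups blurred the lower tiers, as tuft-like cells had 135 CPM in WT and 268 CPM in NFKO and enterocyte-like cells 149 and 193 CPM.

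The G2/M genes separated the groups further. Their sum was 2218 CPM in WT and 2211 CPM in NFKO stem-like cells, and cluster 15 exceeded this 2.05-fold (1.995 to 2.10) in WT, at 4534 CPM, and 2.19-fold (2.15 to 2.23) in NFKO, at 4845 CPM. Cluster 7 had 1628 and 1460 CPM, so that it was close to the stem-like group in G2/M genes but had only 0.208 (0.190 to 0.227) and 0.256 (0.245 to 0.267) of its S level. Endocrine progenitor-like cells held 71.9 and 56.6 CPM, and the stem-like level was 30.8-fold (26.4 to 36.2) and 39.1-fold (34.99 to 43.8) above them. Enteroendocrine-like cells held 60.5 and 35.1 CPM, goblet-like cells 89.9 and 60.7 CPM, and enterocyte-like cells 377 and 641 CPM.

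**Figure D1:**
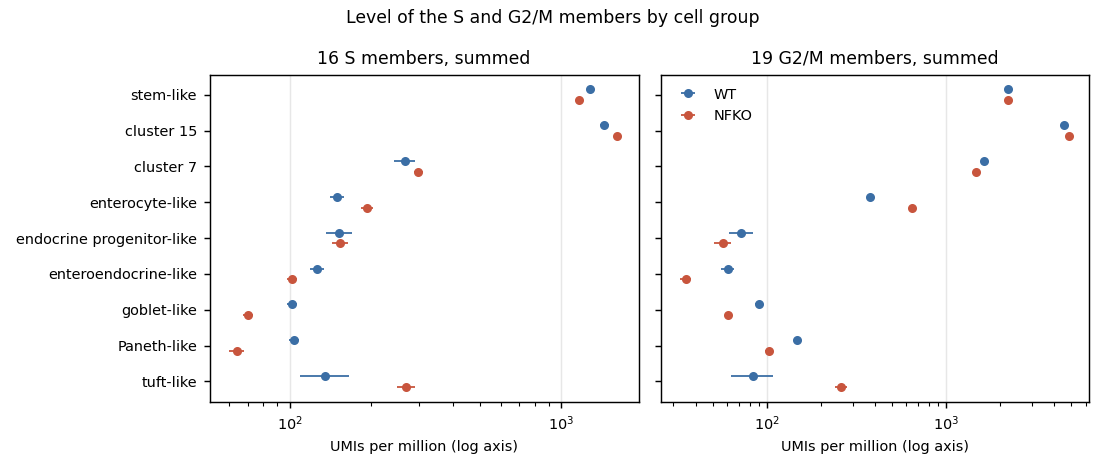
Summed level of the 16 S genes (left) and of the 19 G2/M genes (right) in 9 cell groups, in CPM on a log axis; points are the 2 libraries and bars exact 95% Poisson intervals. Cluster 15 is highest on both sides, and cluster 7 is near the stem-like group on the right (1628 against 2218 CPM in WT) but far below it on the left (265 against 1277 CPM).

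Single S genes did not all follow the order of their sum. Of the 16, 9 were highest in stem-like cells in WT and 7 in cluster 15, and in NFKO 6 and 10 were. The helicase subunit Mcm3 stood at 64.3 CPM in WT and 56.8 CPM in NFKO stem-like cells, at 37.0 and 45.2 CPM in cluster 15, at 3.22 and 2.84 CPM in cluster 7, and at 1.76 and 0.716 CPM in endocrine progenitor-like cells. Hells, a chromatin remodeller, likewise was higher in stem-like cells (117 and 78.9 CPM) than in cluster 15 (67.99 and 60.5 CPM). Cluster 15 was higher, as in the sum, for Rrm2, a subunit of ribonucleotide reductase that supplies deoxynucleotides, with 41.3 and 47.4 CPM in stem-like cells and 77.4 and 99.8 CPM in cluster 15. Tyms, which makes thymidylate, had 120 and 125 CPM in the stem-like group and 214 and 243 CPM in cluster 15. Pclaf, which binds the sliding clamp PCNA, had 204 and 213 CPM against 349 and 463 CPM. The licensing factors Cdc6 (13.9 and 11.8 CPM in stem-like cells) and Cdt1 (40.4 and 34.2 CPM) had 1.07 and 0.526 CPM and 5.37 and 4.11 CPM in cluster 7.

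Some S genes were still read in cells outside the dividing groups. Pcna, the sliding clamp used in both replication and repair, had 176 and 152 CPM in stem-like cells and kept 37.5 and 37.0 CPM in endocrine progenitor-like, 49.8 and 37.0 CPM in enteroendocrine-like and 37.5 and 23.3 CPM in goblet-like cells. Mcm7 had 84.1 and 89.5 CPM in stem-like and 29.1 and 28.4 CPM in endocrine progenitor-like cells. Ung, a DNA glycosylase that removes uracil, stood at 30.6 and 28.1 CPM in stem-like and at 13.5 and 9.53 CPM in goblet-like cells. By contrast, Rrm2 was at 0.882 and 0.358 CPM in endocrine progenitor-like cells and at 1.22 and 0.628 CPM in enteroendocrine-like cells.

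Of the 19 G2/M genes, 17 were highest in cluster 15 in WT and 19 in NFKO, and none was higher in stem-like cells than in cluster 15 in either library. The kinase Cdk1 had 99.6 and 118.1 CPM in stem-like cells, 279 and 343 CPM in cluster 15 and 41.4 and 41.3 CPM in cluster 7. Top2a, which untangles sister chromatids, had 334 and 264 CPM, 680 and 567 CPM, and 68.2 and 46.1 CPM in the same order. Other members ran differently. Ccnb2, a B cyclin, had 78.2 and 97.2 CPM in stem-like cells but 141 and 144 CPM in cluster 7, and Cenpa, the centromeric histone, had 104 and 147 CPM against 178 and 180 CPM. Ccnb1, Cdc20 and Cenpw were also higher in cluster 7 than in stem-like cells in both libraries, and Hmmr was so in WT. No S gene was higher in cluster 7 than in stem-like cells in either library. Thus cluster 7 was low in S genes and, for these few G2/M genes, above the stem-like group.

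To count cells rather than UMIs, each cell was thinned to 4000 UMIs and called high with at least 5 UMIs over the S or over the G2/M genes. Cells above either cut are called dividing here, which is a range of a score and not a cell type, and 290 WT and 739 NFKO cells with fewer UMIs were left out. Of the scored cells, 364 of 2713 (13.4%, 12.2 to 14.8) in WT and 516 of 4553 (11.3%, 10.4 to 12.3) in NFKO were dividing. Without thinning, at the same share of a cell's UMIs, the values were 12.2% and 11.3%. Among male-typed cells alone they were 14.6% (13.1 to 16.1) in WT and 15.6% (11.9 to 19.95) in NFKO, so the lower NFKO share was not seen there. In WT, 55 cells were 1 UMI short of the S cut and 46 were just at it, and 39 and 26 were so for G2/M. In NFKO the numbers were 60 and 33 for S and 44 and 44 for G2/M.

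In the stem-like group, 227 of 292 cells (77.7%) in WT and 138 of 180 (76.7%) in NFKO were dividing, a ratio of 0.986 (0.792 to 1.22). In cluster 15 the shares were 96.9% and 98.1%, and in cluster 7 46.8% and 44.4%. The phases differed between these groups. Of the stem-like cells, 49.3% and 44.4% were S-high, and of cluster 15 cells 50.8% and 63.0%. In cluster 7 the S-high cells were 1.27% and 3.93%, whereas 46.8% and 43.5% were G2/M-high. Cells high in both made up 28.1% and 29.4% of the stem-like group and 38.5% and 52.5% of cluster 15.

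**Figure D2:**
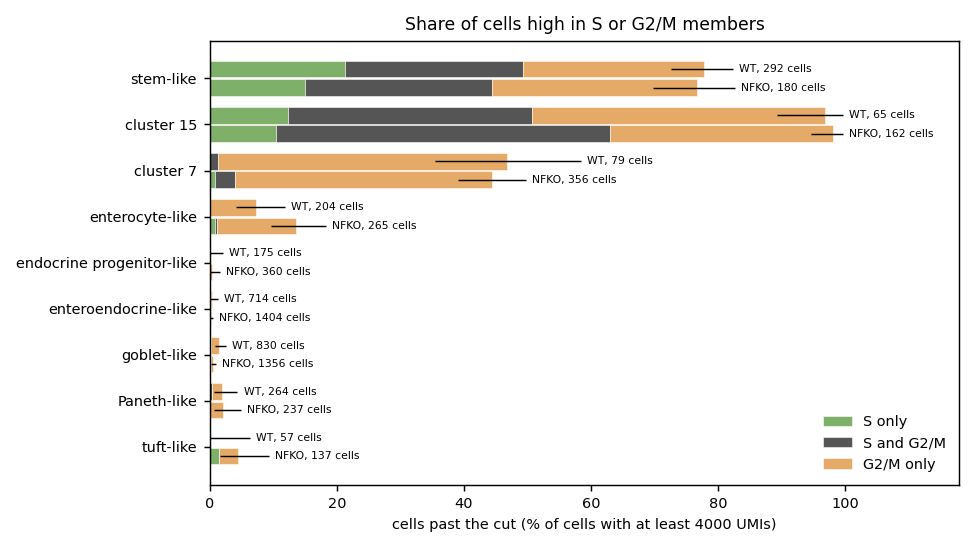
Share of cells past the cut in S genes only, in both, or in G2/M genes only, in percent of the cells with at least 4000 UMIs; black lines are exact 95% binomial intervals of the total. Stem-like cells and cluster 15 hold all 3 kinds, cluster 7 holds G2/M-high cells, and endocrine progenitor-like and enteroendocrine-like cells hold under 1%.

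Few cells of the endocrine groups passed the cut, though the share was higher with each cell named by its own markers or with a cut of 3 UMIs. Of the endocrine progenitor-like cells, 0 of 175 in WT, which allows a share of up to 1.71%, and 1 of 360 (0.278%) in NFKO were dividing. Enteroendocrine-like cells had 3 of 714 (0.420%) and 2 of 1404 (0.142%). Goblet-like cells had 12 of 830 (1.45%) and 6 of 1356 (0.443%), and Paneth-like cells 5 of 264 (1.89%) and 5 of 237 (2.11%). Tuft-like cells had 0 of 57, which allows up to 5.26%, and 6 of 137 (4.38%, 1.62 to 9.29). The median cell held 47240 and 53202 UMIs in the stem-like group and 11989 and 15295 in the enteroendocrine-like group. Free RNA can give UMIs of these genes in cells that do not divide. Its amount was not measured, and whether shares as low as those of the endocrine groups are background was not tested. Of the barcodes removed as doublets, 29.6% in WT and 20.5% in NFKO passed the cut.

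Enterocyte-like cells differed by cluster. Cluster 9, led by the lipid absorption genes Apoa1, Apoa4 and Fabp1, had 0 dividing cells of 59 in WT and 0 of 143 in NFKO, which allows up to 5.09% and 2.10%. Cluster 12, led by Reg1, Car4 and Fabp6, had 15 of 145 (10.3%) and 36 of 122 (29.5%), a ratio of 2.85 (1.52 to 5.61). All 15 of these in WT and 33 of the 36 in NFKO were G2/M-high only, and S-high cells were 0 of 145, which allows up to 2.07%, in WT and 2.46% in NFKO. Over the enterocyte-like group as a whole the ratio of shares was 1.85 (0.987 to 3.63). The NFKO difference within cluster 12 thus exceeded counting error, and 1 library a group does not show whether it exceeds the spread between mice.

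The place of the dividing cells differed between the libraries more than their number. In WT, 62.4% (57.2 to 67.4) of the dividing cells were stem-like and 27.5% (23.0 to 32.4) lay in clusters 7 and 15. In NFKO, 26.7% (23.0 to 30.8) were stem-like and 61.4% (57.1 to 65.7) lay in clusters 7 and 15. This contrast depended on the naming: with each cell classed by its own markers, 67.3% (62.2 to 72.1) of the dividing cells were stem-like in WT and 51.5% (47.1 to 55.9) in NFKO. The groups themselves had other sizes: the stem-like group was 9.72% of the kept cells in WT and 3.44% in NFKO, cluster 7 was 2.63% and 6.80%, and cluster 15 was 2.20% and 3.08%. Within each of these 3 groups the dividing share was similar in the libraries, with ratios from 0.948 to 1.01 whose intervals spanned 1. Clusters 7 and 15 were led by cell cycle genes and may have formed on division, so a like share within them says little about the libraries. The stem-like group, with Hells and Mcm3 among its leading genes, may have formed in part on division too, so the same limit holds for its share. The cells came through a sort for Tomato, and how far the sort and the filter on mitochondrial UMIs, which removed 38.1% of the WT and 25.3% of the NFKO barcodes with the other limits, set these shares was not tested.

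Several genes of the secretory lineage were higher in clusters 7 and 15 than in stem-like cells, though not all. Agr2, a chaperone of mucus production, stood at 13669 and 17642 CPM in cluster 15 and at 16352 and 21999 CPM in cluster 7, against 4324 and 7368 CPM in stem-like and 26201 and 27188 CPM in goblet-like cells. Atoh1, the factor that commits cells to the secretory fate, stood at 183 and 252 CPM in cluster 15, 155 and 215 CPM in cluster 7, 43.9 and 66.8 CPM in stem-like and 150 and 238 CPM in goblet-like cells. The Notch ligand Dll1 had 129 and 130 CPM in cluster 15 and 142 and 132 CPM in cluster 7, against 33.3 and 35.5 CPM in the stem-like group. Olfm4 was at 43.1 and 29.9 CPM in cluster 15 and 60.2 and 40.3 CPM in cluster 7, against 1584 and 1201 CPM in stem-like cells. Neurog3 was at 0.553 and 1.33 CPM in cluster 15 and at 0.537 and 4.42 CPM in cluster 7, against 553 and 906 CPM in endocrine progenitor-like cells. Muc2, the main mucin, was lower in clusters 7 and 15 (1642 to 1835 CPM in WT and 1280 to 1708 CPM in NFKO) than in goblet-like cells (7293 and 13164 CPM). Dividing and other stem-like cells had 1035 and 1155 CPM of it in WT, below both clusters. In NFKO they had 1373 and 2460 CPM, so the lower cluster value of 1280 CPM was under both. Zg16, a goblet granule gene, was lower in cluster 15 (888 and 914 CPM) and in cluster 7 (321 and 1319 CPM) than in stem-like cells (1108 and 5237 CPM). The Paneth gene Lyz1 was at 222 and 312 CPM in cluster 15, 701 and 349 CPM in cluster 7 and 417 and 463 CPM in stem-like cells.

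The share of dividing cells was also read against single markers, regardless of cluster. Among cells with at least 2 thinned UMIs of Olfm4, 61.9% in WT and 67.6% in NFKO were dividing, and among those with 0 UMIs 7.38% and 9.01% were. With Dll1, the share was 17.2% (10.3 to 26.1) and 33.1% (25.1 to 41.9) at 2 or more UMIs and 13.2% and 9.03% at 0. With Neurog3 it was 1 of 120 (0.833%) and 4 of 294 (1.36%) at 2 or more UMIs, 10.4% and 7.07% at 1 UMI, and 14.1% and 12.1% at 0. With Chga, a granin of endocrine granules, it was 2.93% and 1.16% at 2 or more and 17.5% and 16.9% at 0. Lgr5 was too sparse to place, with 19 WT and 10 NFKO cells at 2 or more UMIs. The low share with Neurog3 was seen at 2 or more UMIs, whereas at 1 UMI the intervals (3.47 to 22.7 and 2.89 to 14.03) held the share at 0.

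Hmgb2 and Stmn1 took no part in the cut. Hmgb2, a chromatin protein, had 1451 CPM in dividing and 602 CPM in the other stem-like cells of WT, and 1294 and 559 CPM in NFKO. In cluster 7 it had 2360 against 610 CPM in WT and 1974 against 494 CPM in NFKO. Stmn1, which destabilises microtubules, had 382 against 264 CPM in WT and 526 against 313 CPM in NFKO stem-like cells. Hmgb2 was thus higher in the cells past the cut than in their neighbours of the same cluster, and Stmn1 too. Stmn1 also remained at 231 and 301 CPM in endocrine progenitor-like cells, 11.1-fold (9.36 to 13.2) and 12.5-fold (11.4 to 13.8) above enteroendocrine-like cells, where the S and G2/M genes were low. Olfm4 was lower in the dividing (1452 and 1047 CPM) than in the other stem-like cells (2280 and 1836 CPM).

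The G1 cyclins differed from each other. Ccnd1 was highest in stem-like cells, at 277 CPM in WT and 214 CPM in NFKO, intermediate in cluster 15 (90.7 and 76.2 CPM), cluster 7 (82.2 and 74.0 CPM) and goblet-like cells (57.8 and 48.7 CPM), and low in endocrine progenitor-like (8.38 and 3.04 CPM) and enteroendocrine-like cells (8.88 and 5.43 CPM). Ccnd2 was spread over more groups, with 273 and 269 CPM in stem-like, 248 and 272 CPM in goblet-like and 106 and 138 CPM in endocrine progenitor-like cells. Within the enteroendocrine-like cells it was concentrated in cluster 11, led by Afp, Cartpt and the serotonin synthesis gene Tph1, with 1274 CPM in WT and 1469 CPM in NFKO. No dividing cell was found in cluster 11 (0 of 31 and 0 of 237, which allows up to 9.68% and 1.27%). Ccne1, the partner of CDK2 at the start of S phase, had 14.6 and 11.98 CPM in stem-like and 19.4 and 28.6 CPM in cluster 15 cells, against 0.537 and 0.526 CPM in cluster 7.

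Of the merged cell groups, endocrine progenitor-like cells had the highest level of both CDK inhibitors. Cdkn1a stood at 2264 CPM in WT and 2869 CPM in NFKO there, 34.3-fold (32.0 to 36.8) and 40.1-fold (37.1 to 43.4) above stem-like cells (66.0 and 71.5 CPM). Cdkn1c stood at 1144 and 1643 CPM, 59.9-fold (lower limit 53.0) and 58.9-fold (52.0 to 66.8) above stem-like cells (19.1 and 27.9 CPM). Enteroendocrine-like cells kept 595 and 813 CPM of Cdkn1a and 616 and 667 CPM of Cdkn1c. Among their clusters, cluster 2, led by the hormone gene Gip, had 1201 CPM (1159 to 1244) of Cdkn1c in WT, above the 1144 CPM (1100 to 1188) of the endocrine progenitor-like cells, and 1258 CPM in NFKO, below them. Outside the endocrine lineage the inhibitors parted: goblet-like cells had 236 and 202 CPM of Cdkn1a but 8.85 and 4.86 CPM of Cdkn1c, and tuft-like cells 316 and 362 CPM of Cdkn1a and 92.1 and 94.6 CPM of Cdkn1c. Cdkn1a also responds to stress, and the 7 stress genes summed to 8499 and 4757 CPM in endocrine progenitor-like cells and to 2230 and 1189 CPM in stem-like cells. Their part in the Cdkn1a level was not tested.

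**Figure D3:**
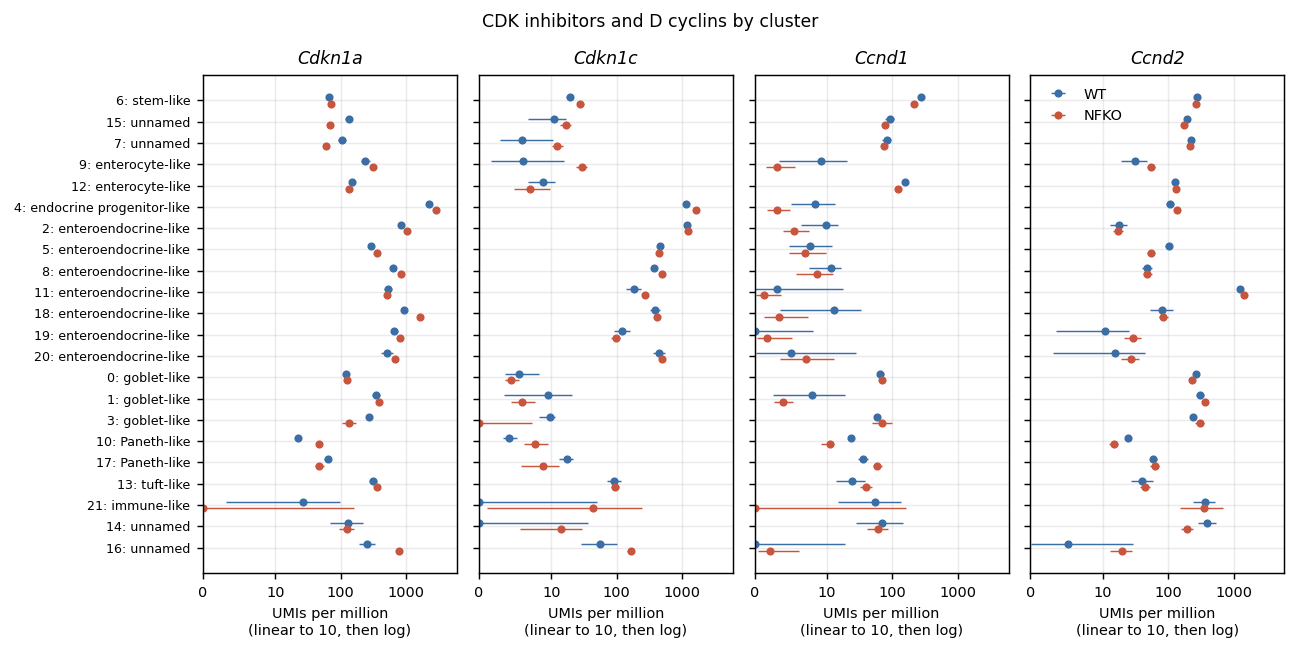
Level of the CDK inhibitors and D cyclins in each of the 22 clusters, in CPM on an axis that is linear to 10 and logarithmic above; points are the 2 libraries with exact 95% Poisson intervals. Cdkn1a is highest in the endocrine progenitor-like cluster 4, Cdkn1c in cluster 4 in NFKO (1643 CPM) and in cluster 2 in WT (1201 CPM), Ccnd1 in the stem-like cluster 6, and Ccnd2 in cluster 11 (1274 and 1469 CPM).

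NFKO was then compared with WT gene by gene. A gene was called where its ratio was at least 1.5-fold in either direction and it had at least 50 UMIs over both libraries. Over all kept cells, all 42 genes had the counts, 2 were called higher and 6 lower, where 17.5% and 4.44% of all genes tested were called. The median gene of the whole table had a log2 ratio of 0.21, and the S genes a median of -0.45 and the G2/M genes of 0.12. Cdkn1a had 236 CPM in WT and 418 CPM in NFKO (1.77, 1.74 to 1.80) and Cdkn1c 113 and 228 CPM (2.02, 1.97 to 2.07), but these ratios were 1.37 and 1.21 when all cells counted equally. The genes called lower were Mcm2, Mcm3, Hells, Cdt1, Mki67 and Ccnd1, among them Hells with 28.2 and 13.1 CPM (0.463, 0.433 to 0.495) and Ccnd1 with 92.2 and 52.3 CPM (0.568, 0.548 to 0.588). The S level over all cells was 368 CPM in WT and 290 CPM in NFKO (0.788, 0.776 to 0.801), and the G2/M level 668 and 674 CPM (1.01, 0.998 to 1.02). In male-typed cells alone the ratios were 0.990 (0.956 to 1.03) for S and 1.45 (1.42 to 1.48) for G2/M, so the lower S level over all cells was not seen there. In these cells 11 genes were called higher and 3 lower, but the share of all genes called in them was not counted.

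Within the stem-like group few genes differed. None of the 42 was called higher and 1 lower, against 4.34% and 6.26% of all genes. That gene was Mki67, the proliferation antigen, with 316 CPM in WT and 209 CPM in NFKO (0.660, 0.626 to 0.696), close to the call limit, and it was not called with size factors (0.673) or equal weight of cells (0.677). Hells stood just short of the limit at 117 and 78.9 CPM (0.673, 0.616 to 0.734). Ratios above 1 were seen for Cenpa (104 and 147 CPM, 1.41, 1.31 to 1.52), Stmn1 (363 and 485 CPM, 1.33, 1.28 to 1.39) and Ccnb2 (78.2 and 97.2 CPM, 1.24, 1.14 to 1.36), none of which was called. The S sum had a ratio of 0.911 (0.890 to 0.933) and the G2/M sum of 0.997 (0.980 to 1.02). In male-typed stem-like cells 3 genes were called higher and 4 lower, and the ratio of Mki67 was 0.832 (0.746 to 0.925). Such cells with at least 4000 UMIs numbered 275 in WT but only 24 in NFKO, and the interval does not cover the spread between cells. The share of all genes called was not counted for these cells either.

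In cluster 15, 2 genes were called higher and 2 lower, against 8.25% and 6.65% of all genes. Stmn1 had 334 CPM in WT and 566 CPM in NFKO (1.70, 1.55 to 1.85) and Cdkn1c 11.1 and 16.6 CPM (1.503, 0.923 to 2.56, an interval that spans 1). Mki67 had 669 and 444 CPM (0.663, 0.619 to 0.710) and Cdkn1a 132 and 68.9 CPM (0.524, 0.446 to 0.617). Ube2c (621 and 904 CPM, 1.46, 1.36 to 1.55) and Cenpa (156 and 221 CPM, 1.42, 1.25 to 1.62) lay just under the limit. In cluster 7, where 38 genes had the counts, Cdkn1c was called higher (5.91 and 12.4 CPM, 2.10, 1.13 to 4.33) and Cdkn1a lower (105 and 59.4 CPM, 0.564, 0.479 to 0.667), against 8.11% and 6.25% of all genes. Cdkn1a was therefore lower in NFKO in both clusters, whereas it was higher in endocrine progenitor-like cells (1.27, 1.23 to 1.31) and in enteroendocrine-like cells (1.37, 1.32 to 1.41). The 7 stress genes summed to 4550 and 2827 CPM in cluster 15 and to 3783 and 3281 CPM in cluster 7.

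**Figure D4:**
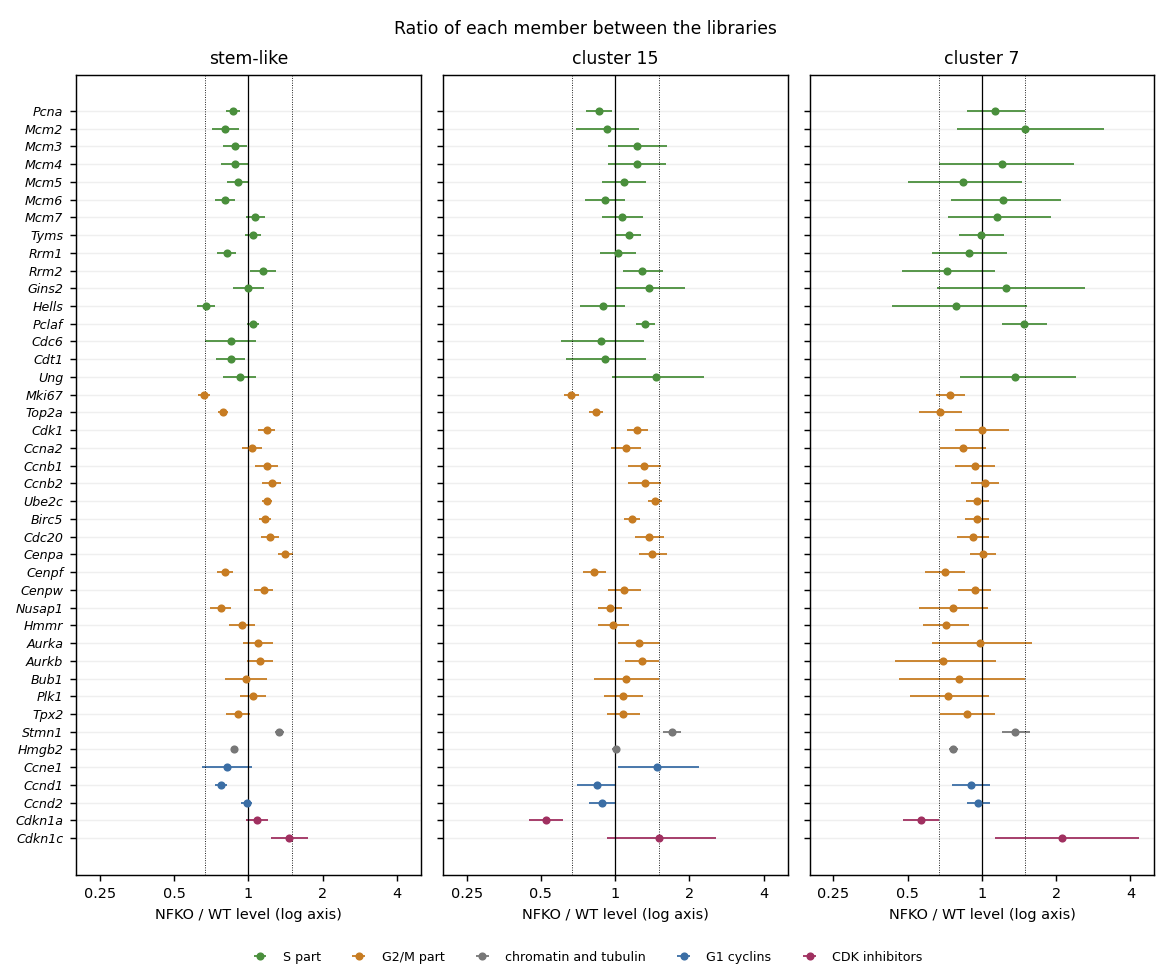
Ratio of each of the 42 genes, NFKO over WT, on a log axis, in stem-like cells, cluster 15 and cluster 7; bars are exact 95% intervals, dotted lines mark 1.5-fold, and genes with under 50 UMIs over both libraries are left out. Most ratios lie between the dotted lines, with Mki67 low in stem-like cells and cluster 15 (0.660 and 0.663) and Cdkn1a low in clusters 15 and 7 (0.524 and 0.564).

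A pattern by transcript length ran through the ratios in stem-like cells, cluster 15 and, more weakly, cluster 7. Among the 35 S and G2/M genes in stem-like cells, the 6 whose longest coding transcript is under 2000 bases had a median ratio of 1.17, the 20 of at least 2000 but under 4000 bases 0.989, and the 9 of 4000 bases or more 0.804. In cluster 15 the medians were 1.30, 1.12 and 0.889, and in cluster 7, with 32 genes, they were 0.995, 0.944 and 0.826. Spearman's rho across these genes was -0.61 in stem-like cells, -0.61 in cluster 15 and -0.32 in cluster 7. Across all genes of the same groups it was -0.43 (10466 genes), -0.39 (8551) and -0.32 (8898), and the median ratios of all stem-like genes were 1.13, 0.986 and 0.877 in the 3 length classes. Of the other groups, only enteroendocrine-like and goblet-like cells were examined. In enteroendocrine-like cells rho was weak, at -0.12, over 19 of the S and G2/M genes. It was -0.48 over 8 G2/M genes alone and -0.27 over all genes, near the all-gene value of cluster 7. In goblet-like cells it was 0.004 over 26 and -0.02 over all genes. The genes of a library share its depth and preparation, so these are descriptions. Mki67 (10061 bases), Cenpf (11130), Top2a (5221) and Hells (5868) are among the long transcripts and had ratios of 0.660, 0.804, 0.790 and 0.673 in stem-like cells. Cenpa (1466 bases), Ccnb2 (1531) and Cdc20 (1793) are short and had 1.41, 1.24 and 1.22. Length therefore moved with the ratio of Mki67 and of its neighbours, and its part was not tested. Pcna, with 1518 bases and a ratio of 0.865 (0.810 to 0.923), was an exception, and the ratios of the 9 genes of 4000 bases or more reached 1.185 in stem-like cells.

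**Figure D5:**
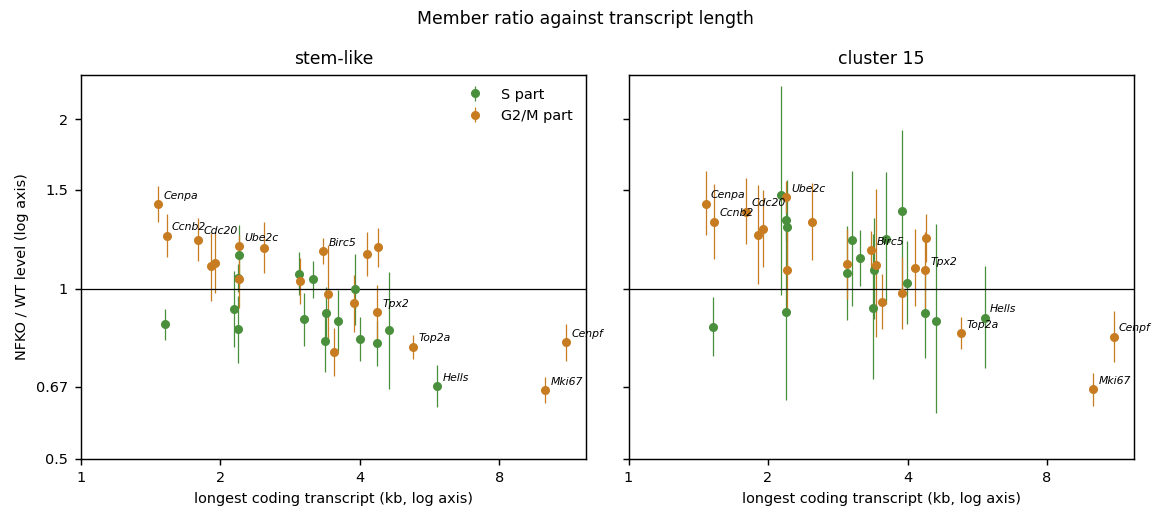
Ratio of the 35 S and G2/M genes, NFKO over WT, against the length of the longest coding transcript, both on log axes, in stem-like cells and in cluster 15; bars are exact 95% intervals. Short transcripts such as Cenpa lie above 1 and the longest, Mki67 and Cenpf, below it (0.660 and 0.804 in stem-like cells).

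Enterocyte-like cells had the most genes called higher among the cell groups counted, which did not include Paneth-like and tuft-like cells. Of 37 genes with the counts, 19 were higher and 1 lower, against 10.2% and 7.90% of all genes. By role, 13 of 18 G2/M genes and 4 of 13 S genes were higher. Ube2c, the ubiquitin-conjugating enzyme of the anaphase-promoting complex, had 44.2 and 110 CPM (2.48, 2.19 to 2.83), Birc5, the survivin of the chromosomal passenger complex, 48.0 and 99.3 CPM (2.07, 1.82 to 2.35) and Cdk1 12.5 and 26.0 CPM (2.08, 1.62 to 2.69). Mki67 was not among them (49.1 and 48.1 CPM, 0.979, 0.847 to 1.13), but in cluster 12 alone it had 52.8 and 80.3 CPM (1.52, 1.31 to 1.76). The G2/M sum was 377 and 641 CPM (1.70, 1.62 to 1.78). In cluster 12 alone it was 410 and 1078 CPM (2.63, 2.51 to 2.76), with 26 of 36 genes called higher and 0 lower against 9.17% and 7.56% of all genes, whereas in cluster 9 it was 53.3 and 31.3 CPM (0.587, 0.398 to 0.885). Ccnd1 was the gene called lower (144 and 71.1 CPM, 0.492, 0.444 to 0.544), and in cluster 12 alone it was 158 and 120 CPM (0.758, 0.684 to 0.839).

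Goblet-like cells appeared lower in NFKO, with 17 of 32 genes called lower and 0 higher, against 6.96% and 7.97% of all genes. Different clusters held most of the class in the libraries: cluster 3, led in part by the heat shock genes Hspa1a, Hspa1b and Dnajb1, held 616 WT and 25 NFKO cells, and clusters 0 and 1 held 247 and 1508. Without cluster 3, 2 of 28 genes were called lower and 2 higher, against 3.79% and 10.9% of all genes. The S ratio was 0.691 (0.650 to 0.735) with cluster 3 and 0.927 (0.830 to 1.04) without it, and the G2/M ratio was 0.675 (0.632 to 0.721) with it and 1.03 (0.910 to 1.17) without it. The lower level was thus not seen without cluster 3, where WT cells held 100 CPM of G2/M genes. Cluster 3 held most of the WT goblet-like cells and was left out after the data were seen. The split therefore cannot decide where the lower level came from.

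In the endocrine groups many S and G2/M genes were under the count minimum. In endocrine progenitor-like cells 13 of the 42 genes had the counts, with Mcm6 called higher (6.62 and 11.8 CPM, 1.78, 1.01 to 3.37) and Hells lower (10.2 and 5.37 CPM, 0.529, 0.297 to 0.954), against 7.47% and 4.64% of all genes. In enteroendocrine-like cells 25 genes had the counts, with 1 called higher and 8 lower, against 6.06% and 7.55%. The genes called lower were Mcm2, Pclaf, Mki67, Top2a, Cdk1, Cenpa, Hmgb2 and Ccnd1, and the G2/M sum was 60.5 CPM in WT and 35.1 CPM in NFKO (0.580, 0.519 to 0.648). Without the cells past the dividing cut it was 46.5 and 32.3 CPM (0.696, 0.616 to 0.787), and the ratio was 0.820 when all cells counted equally. By cluster the ratio was 0.332 (0.271 to 0.406) in cluster 2, 0.657 (0.532 to 0.812) in cluster 5 and 0.446 (0.264 to 0.787) in cluster 11, but 1.01 (0.796 to 1.29) in cluster 8, 1.04 (0.585 to 1.98) in cluster 18, 2.11 (1.01 to 5.11) in cluster 19 and 3.48 (0.574 to 142) in cluster 20, so the lower sum did not hold across the class. Ccnd2 was called higher (96.3 and 195 CPM, 2.02, 1.88 to 2.18). Cluster 11 held 33 WT and 265 NFKO cells, and without it Ccnd2 had 53.3 and 38.2 CPM (0.717, 0.638 to 0.807), so the higher level rested on the number of cluster 11 cells. The inhibitors were not called in the endocrine groups, where Cdkn1c had ratios of 1.44 (1.38 to 1.501) in endocrine progenitor-like and 1.08 (1.05 to 1.12) in enteroendocrine-like cells.

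Tuft-like and Paneth-like cells had few dividing cells. In tuft-like cells the S sum was 135 CPM in WT and 268 CPM in NFKO (1.99, 1.59 to 2.50) and the G2/M sum 83.1 and 259 CPM (3.12, 2.37 to 4.17). Without the 6 NFKO cells past the cut, they were 135 and 193 CPM (1.43, 1.14 to 1.81) and 83.1 and 114 CPM (1.37, 1.02 to 1.86). In Paneth-like cells the S sum was 104 and 63.9 CPM (0.616, 0.571 to 0.665), and without the cells past the cut 88.9 and 59.8 CPM (0.673, 0.620 to 0.730). The G2/M sum there was 147 and 102 CPM (0.698, 0.656 to 0.742), and 99.1 and 47.4 CPM (0.478, 0.438 to 0.522) without those cells. The Paneth-like clusters differed: in cluster 10 the ratios were 0.542 (0.497 to 0.590) for S and 0.640 (0.599 to 0.684) for G2/M, and in cluster 17 they were 1.08 (0.905 to 1.28) and 1.25 (1.05 to 1.48). The lower Paneth-like sums were thus those of cluster 10, and the 6 cells past the cut held much of the tuft-like difference.

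Further cell cycle genes were counted from other lists. These lists too were chosen with earlier results of these data known, so they are not an independent check. Of 33 other S genes over all cells, 0 were called higher and 7 lower, against 17.5% and 4.44% of all genes, with Cdca7, a partner of Hells, lowest (34.5 and 15.7 CPM, 0.455, 0.429 to 0.484). Of 40 other G2/M genes, 1 was higher and 2 lower, with Tubb4b, a tubulin, highest (312 and 482 CPM, 1.54, 1.52 to 1.57). In the stem-like group 0 and 2 of the other S genes and 1 and 1 of the 40 other G2/M genes were called higher and lower, near or under the 4.34% and 6.26% of all genes. In the enterocyte-like group 13 of 29 other G2/M genes with the counts were higher and none lower, against 10.2% and 7.90% of all genes, with Cdc25c, the phosphatase that activates Cdk1, highest (1.66 and 4.82 CPM, 2.90, 1.49 to 6.05). In goblet-like cells 8 of 17 and in enteroendocrine-like cells 7 of 19 were lower, against 6.96% and 7.55% of all genes, with Prc1, a microtubule bundler of the spindle midzone, lowest in both (0.346 and 0.294). Of 27 genes of G1 and restraint, 3 were higher and 2 lower over all cells, with the INK4 inhibitor Cdkn2d highest (12.2 and 21.8 CPM, 1.78, 1.65 to 1.92) and Myc lowest (18.9 and 8.07 CPM, 0.427, 0.392 to 0.464). In stem-like cells another INK4 inhibitor, Cdkn2b, was highest (22.7 and 34.3 CPM, 1.51, 1.29 to 1.77) and Gadd45g, a growth arrest gene, lowest (88.1 and 45.7 CPM, 0.518, 0.463 to 0.578). The other S and G2/M genes thus had few calls in stem-like cells and, in enterocyte-like cells, calls in the direction of the G2/M genes described above.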

How the data were processed

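Tomato+ small intestinal cells of 1 WT and 1 NFKO library were measured. The authors deposited raw UMI counts per gene and barcode, 90002878 and 124300388 in 5051 and 7540 barcodes, and per the submitters' processing notes they were made with Cell Ranger 5.0.1 and mm10. The 42 genes and all lists were chosen with earlier results of these data known. Barcodes were required to have 500 detected genes, 1000 UMIs and no more than 25% of UMIs from mitochondria, and the highest Scrublet scores (scanpy 1.11.5), 0.8% per 1000 barcodes, removed 126 and 340 doublets, because the automatic threshold marked 2 and 0. Cells were clustered in Seurat 5.3.0 (R 4.3.3, 2000 variable genes, 30 components, resolution 0.8) without 254 genes, among them the listed cell cycle genes and the histone genes. A cluster was named where at least 3 markers of a type stood 2-fold or more above their level elsewhere and 10% or more of its cells had them. It stayed unnamed where its depth was low in both libraries and no marker of the type was among its leading genes. Cluster 16 (51 WT and 160 NFKO cells), led by Nts, had 7 markers but stayed unnamed by this rule.

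Counts were summed per cell group and library. Exact intervals (scipy 1.17.1) were Poisson for CPM, Clopper-Pearson for shares and, for ratios, binomial given both counts. All were at 95% and for counting error only. Only the ratio intervals were tried on simulated data. These were Poisson counts without spread between cells, so coverage under such spread was not tested. A count of 0 allows 3 counts, which is 0.0381 CPM over all WT and 0.0270 CPM over all NFKO cells. With 1 library a group no p-value was computed. All 42 genes were named by role, other lists by counts and their highest and lowest genes. Promoters are from RefSeq (GRCm38.p6), transcript lengths from GENCODE M21. Other resolutions, filters, cuts, scalings, male-typed cells and parts of a class were tried as alternatives.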

Additional observations from a re-analysis of the deposited data

Results flagged for a closer look

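The S and G2/M sums moved more than 1.5-fold in opposite directions in different cell groups, and the difference between the groups was not tested, since each group had 1 library. The G2/M ratio, NFKO over WT, was 1.70 in enterocyte-like and 3.12 in tuft-like cells but 0.580 in enteroendocrine-like cells. The S ratio was 1.99 in tuft-like and 0.616 in Paneth-like cells. Without the 6 NFKO cells past the dividing cut the tuft-like ratios were 1.37 for G2/M and 1.43 for S. Without such cells the Paneth-like S ratio was 0.673, and the enteroendocrine-like G2/M ratio was 0.696. Within these classes the clusters differed, with Paneth-like S ratios of 0.542 in cluster 10 and 1.08 in cluster 17. Enteroendocrine-like G2/M ratios ran from 0.332 in cluster 2 to 3.48 in cluster 20. The last rested on 1 WT and 27 NFKO UMIs, with an interval (0.574 to 142) that spans 1.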

How the results depend on the processing

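Within the stem-like group the ratio of dividing shares ranged from 0.959 to 1.07, and in the enterocyte-like group from 1.51 to 3.04, over all alternatives tried. Among male-typed cells the ratio of dividing shares over all cells was 1.06 and 35.9% of the NFKO dividing cells were stem-like. Male-typed stem-like cells with at least 4000 UMIs numbered 275 in WT and only 24 in NFKO. The S ratios in male-typed cells were 0.990 over all cells, 0.811 in stem-like, 0.650 in goblet-like and 0.751 in enteroendocrine-like cells, and the G2/M ratios were 1.45, 1.25, 0.491 and 0.3997, and 2.83 in enterocyte-like cells. There, 11 genes were called higher and 3 lower over all cells, 3 and 4 in stem-like cells, 0 lower in enterocyte-like, and 1 and 2 higher in goblet-like and enteroendocrine-like cells. The share of all genes called was not counted for male-typed cells or for the other scalings and count minima below, so these counts have no background beside them. Naming each cell by its own markers put 51.5% of the NFKO dividing cells in the stem-like group and 2.33% of endocrine cells past the cut. Its S and G2/M ratios were 0.881 and 1.22 in stem-like, 1.41 and 1.37 in enterocyte-like, 0.958 and 1.03 in goblet-like, and 0.885 and 0.705 in enteroendocrine-like cells. A cut of 3 UMIs gave 54.9% stem-like among WT dividing cells and 2.49% of endocrine cells, and the endocrine share, 0.226% in the fit reported, was 0.0754% at a cut of 8 and 0.4996% at 2000 UMIs with a cut of 3. With doublets kept it was 0.535%, the S ratio over all cells was 0.772, and the G2/M ratios were 1.58, 0.767 and 0.758 in enterocyte-like, goblet-like and enteroendocrine-like cells. With at most 10% mitochondrial UMIs, the S ratio was 0.861 over all cells and 0.615 in goblet-like cells, and the G2/M ratio 1.09, 0.553 in goblet-like and 0.948 in stem-like cells. Size factors gave an S ratio of 0.683 and a G2/M ratio of 0.875 over all cells, 1.02 for G2/M in stem-like cells, 13 genes lower over all cells and 0 in stem-like cells. Equal weight of cells gave S ratios of 0.824 over all cells, 0.630 in goblet-like and 0.886 in enteroendocrine-like cells, G2/M ratios of 1.03 over all cells, 1.03 in stem-like and 0.820 in enteroendocrine-like cells, 0 genes higher over all cells, and 0 and 5 lower in stem-like and enteroendocrine-like cells. With cell cycle genes kept in the clustering the G2/M ratios were 1.02, 1.48 and 0.850 in stem-like, enterocyte-like and goblet-like cells, and resolution 0.4 gave 0.889 for S and 1.22 for G2/M in goblet-like cells. Without a count minimum, 2 genes were lower in enterocyte-like and 2 higher and 18 lower in enteroendocrine-like cells, and at 200 UMIs 8 were lower in goblet-like and 2 in enteroendocrine-like cells. The cause of these shifts was not tested. Chosen after seeing the data, goblet-like cells without cluster 3 had ratios of 0.927 for S and 1.03 for G2/M, cluster 0 alone 1.07 and 1.19, and cluster 1 alone 0.915 and 1.08. Without cells past the dividing cut the G2/M ratio was 0.765 in goblet-like and 0.696 in enteroendocrine-like cells. Cluster 12 alone had 1.80 and 2.63, and cluster 9 alone reversed to 0.587 for G2/M. Ccnd2 in enteroendocrine-like cells reversed to 0.717 without cluster 11. No paired analysis was possible because each group has 1 library.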
